A study of Mus musculus with 67 samples.

Results

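The 8 genes described here make, modify and release Hedgehog (HH) ligands: Shh, Ihh, Dhh, Hhat, Disp1, Scube1, Scube2 and Scube3. They were taken by name from RNA-seq gene tables of mouse forelimb buds, which list 46983 gene IDs, and each of the 8 names matched 1 gene ID. RNA was sequenced from 14 pools of buds in 4 groups. The pre-HH groups were whole forelimb buds of E9.25 embryos with 21 to 23 somites, 3 WT and 4 Gli3-/- libraries. The post-HH groups were the anterior part of forelimb buds of E10.5 embryos with 32 to 35 somites, 4 WT and 3 Gli3-/- libraries. Both genotypes were on a Swiss Webster background, and the Gli3-/- embryos carried the Xt-J deletion allele of Gli3, the main transcriptional repressor of the HH pathway. By the labels, a library pooled 4 pairs of buds when taken at E9.25 and 2 pairs when taken at E10.5, and is not 1 animal. The authors' methods instead give about 4 pairs for a replicate at both stages. Stage and dissection changed together, so that a difference between E9.25 and E10.5 cannot be told apart from a difference between whole and anterior buds.

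HH ligands are lipid-modified proteins. HHAT, a membrane-bound acyltransferase of the secretory pathway, adds palmitate to the ligand, and a cholesterol group is added when the precursor cleaves itself. The membrane protein DISP1 hands the finished ligand over to secreted SCUBE proteins, which carry it out of the producing cell. In the limb, SHH is made by a small group of posterior mesenchymal cells, the zone of polarizing activity, and sets the number and identity of digits. IHH is the ligand of growing cartilage and DHH that of Schwann cells and the testis. Mice that lack Gli3 have extra digits.

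Levels are given as TPM, a length-corrected share of the transcripts, in which the values of a library share a fixed total. Estimated depth was 38.1 to 56.8 M reads, and a TPM of 1 stood for 20.7 to 29.3 reads per kilobase of transcript. Limb mesenchyme markers (7 of 7, among them Prrx1 and Tbx5) were at a TPM of at least 1 in every library. Gli3 RNA, which the Xt-J allele need not remove, was 6.22 to 6.50 log2(TPM + 1) in E10.5 WT and 5.31 to 5.39 in E10.5 Gli3-/- libraries. At E9.25 the genotypes overlapped, with 4.07 to 5.51 in WT and 3.94 to 4.45 in Gli3-/-. The lowest E9.25 WT value came from replicate 2. There, long genes (span of at least 100 kb) lay at a median of -0.55 log2 against the remaining E9.25 WT libraries, and all genes at -0.19. In WT replicate 1 the same medians were 0.41 and 0.19, so the E9.25 WT libraries spread in both directions.

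The 8 genes fell into 2 classes by level, which the plot of TPM by library shows. Disp1, Hhat, Scube1 and Scube3 were at a TPM of at least 1 in all 14 libraries. Ihh, Dhh and Scube2 stayed under 1 in every library, and Shh reached 1 in only the 3 E10.5 Gli3-/- libraries.

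**Figure D1:**
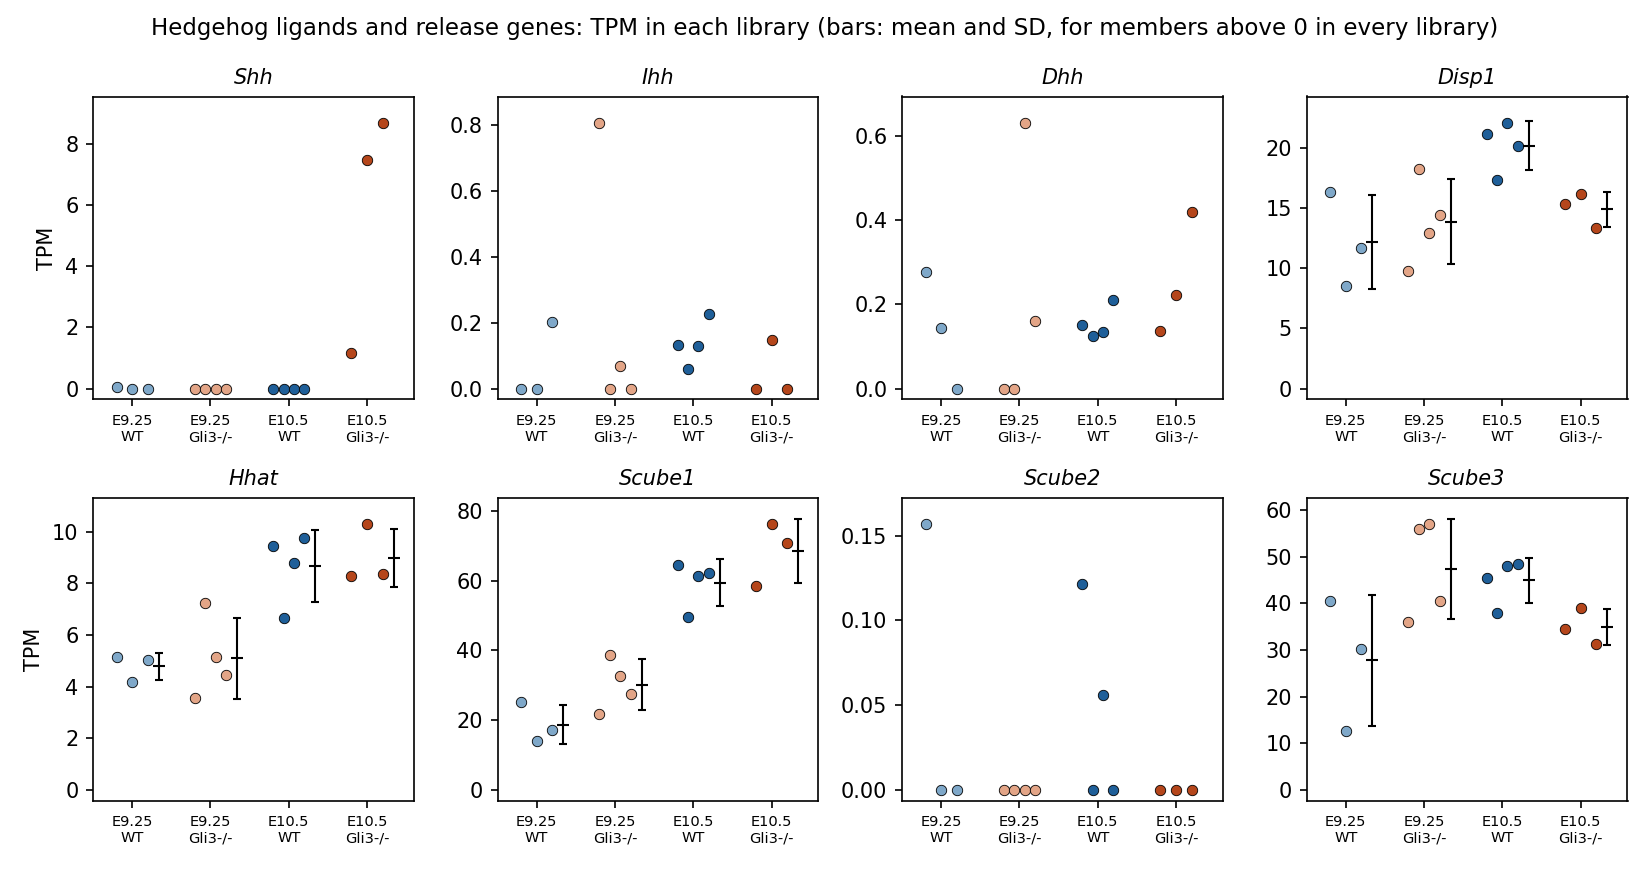
TPM (vertical axis, linear, scaled per gene) of each of the 8 genes in each of the 14 libraries, by group; bars give the mean and SD for the 4 genes above 0 in every library. Shh is at 1.17 to 8.67 TPM in E10.5 Gli3-/- libraries and at most 0.0603 elsewhere, Scube1 is higher in every E10.5 than in every E9.25 library, and Scube3 is not.

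Shh (ENSMUSG00000002633.4, chromosome 5, 28456815 to 28467256, minus strand, with coordinates as in the deposited tables) was listed at 0 TPM in all 4 E10.5 WT libraries. In the anterior E10.5 Gli3-/- libraries it was at 1.17, 7.47 and 8.67 TPM in replicates 1, 2 and 3. At E9.25 it was at 0.0603 TPM in WT replicate 1 and listed at 0 in the other 6 libraries. Shh RNA was thus found in every E10.5 mutant pool and in no E10.5 WT pool, and the pools of the 2 genotypes did not overlap. The mutant pools themselves differed widely, replicate 1 lying far below the other two. In the highest library Shh was covered at 184 reads per kilobase, so the level there does not rest on a few reads. In bulk RNA, more cells with the transcript and more transcript per cell cannot be told apart.

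The log2 fold change of Shh on log2(TPM + 1) in E10.5 Gli3-/- against WT buds was 2.49 (standard error 0.44, limma adjusted p = 0.0134). Because the WT group is at 0, this number depends on the pseudocount and is no bound on the fold. Shh entered the test only through the 3 mutant libraries, which had to reach a TPM of 1, so it could be tested only because it was high there. An exact two-sided permutation test over the 7 libraries, added after the values were seen, gave p = 0.0286, the smallest it can give. The call was lost with a replicate block by titles (limma adjusted p = 0.0853), without the filter on low TPM (0.0735), and without mutant replicate 2 (0.0526) or mutant replicate 3 (0.0523). Of the 8 genes, 5 were tested at E10.5 and 1, Shh, passed, where 4.77% of all 15654 genes tested passed. Of the other 4, 0 passed by limma (2 at an unadjusted p under 0.05, Disp1 and Scube3). Of all 15654 genes tested, 3061 were under that unadjusted p.

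The same 3 libraries enter the comparison of stages in the mutant and the interaction, and there too Shh passed the filter only through them, so that these p-values belong to a gene selected by its high level in that group. E10.5 against E9.25 Gli3-/- buds had a log2 fold change of 2.49 for Shh (standard error 0.43, limma adjusted p = 0.00204), whereas in WT Shh was below the filter at both stages (exact permutation p = 0.429). The stage by genotype interaction for Shh was 2.52 (standard error 0.51, limma adjusted p = 0.0179). They are not separate evidence. The interaction was lost with the replicate block by titles (limma adjusted p = 0.137), without the filter (0.0537), and without mutant replicate 2 (0.0533) or 3 (0.0545).

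Ihh (ENSMUSG00000006538.10, chromosome 1, 74945315 to 74951672, minus strand) was above 0 in 8 of 14 libraries and never above 0.805 TPM. That highest value was in E9.25 Gli3-/- replicate 1, while replicates 2 to 4 were at 0, 0.0684 and 0 TPM. All 4 E10.5 WT libraries had some Ihh (0.0589 to 0.227 TPM) and 1 of 3 E10.5 Gli3-/- libraries did (0.147 TPM), a difference within the spread (exact permutation p = 0.2). Dhh (ENSMUSG00000023000.4, chromosome 15, 98893031 to 98898540, minus strand) was above 0 in 11 of 14 libraries, with a highest value of 0.630 TPM in E9.25 Gli3-/- replicate 3. At E10.5 it was at 0.124 to 0.210 TPM in WT and 0.137 to 0.420 TPM in Gli3-/- libraries, which overlapped (exact permutation p = 0.2). The summed TPM of the 3 ligands was therefore at most 0.805 outside the E10.5 Gli3-/- group. In that group it ran from 1.31 to 9.09, nearly all of it Shh.

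Shh RNA was seen beside a shift of the anterior-posterior genes of the bud. Of all genes tested between genotypes at E10.5, 4.77% passed. Of a list of 11 posterior genes, all tested at E10.5, 8 were higher and 1 was lower in Gli3-/- buds. Of 7 anterior genes, 6 were tested and 5 were lower, the largest change being that of Pax1, a shoulder girdle factor, with a log2 fold change of -4.23. Pax1, at no more than 0.172 TPM in the Gli3-/- libraries, reached the filter only through the WT libraries. The passes of Hoxd12 and Pax1 are therefore not read against that share of all genes. The medians were 1.58 for the posterior and -2.92 for the anterior list, against -0.02 for all genes tested. Hoxd13, a distal and posterior homeobox gene, was at 67.7, 132 and 109 TPM in mutant replicates 1, 2 and 3, against 2.53 to 13.5 TPM in WT. Hoxa13, another distal homeobox gene, was at 12.98, 34.6 and 24.6 TPM in the mutant replicates against at most 5.73 TPM in WT. Replicate 1, the mutant library with the least Shh, also had the least Hoxd13 and Hoxa13 of the 3 mutant libraries. It had the most Irx3, an anterior and proximal homeobox gene, at 11.5 TPM, against 6.77 and 2.24 TPM in replicates 2 and 3. Among WT libraries, replicate 2 had the most Hoxd13 (13.5 TPM) and the least Irx3 (48.2 TPM), and Shh was listed at 0 there too. Not all posterior genes were high in that library, which had 2.49 TPM of Hoxa13, below WT replicates 3 (5.73 TPM) and 4 (4.09 TPM), and the least Tbx2 and Tbx3 of the WT libraries. Whether the dissected part of the bud differed between libraries was not tested.

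**Figure D2:**
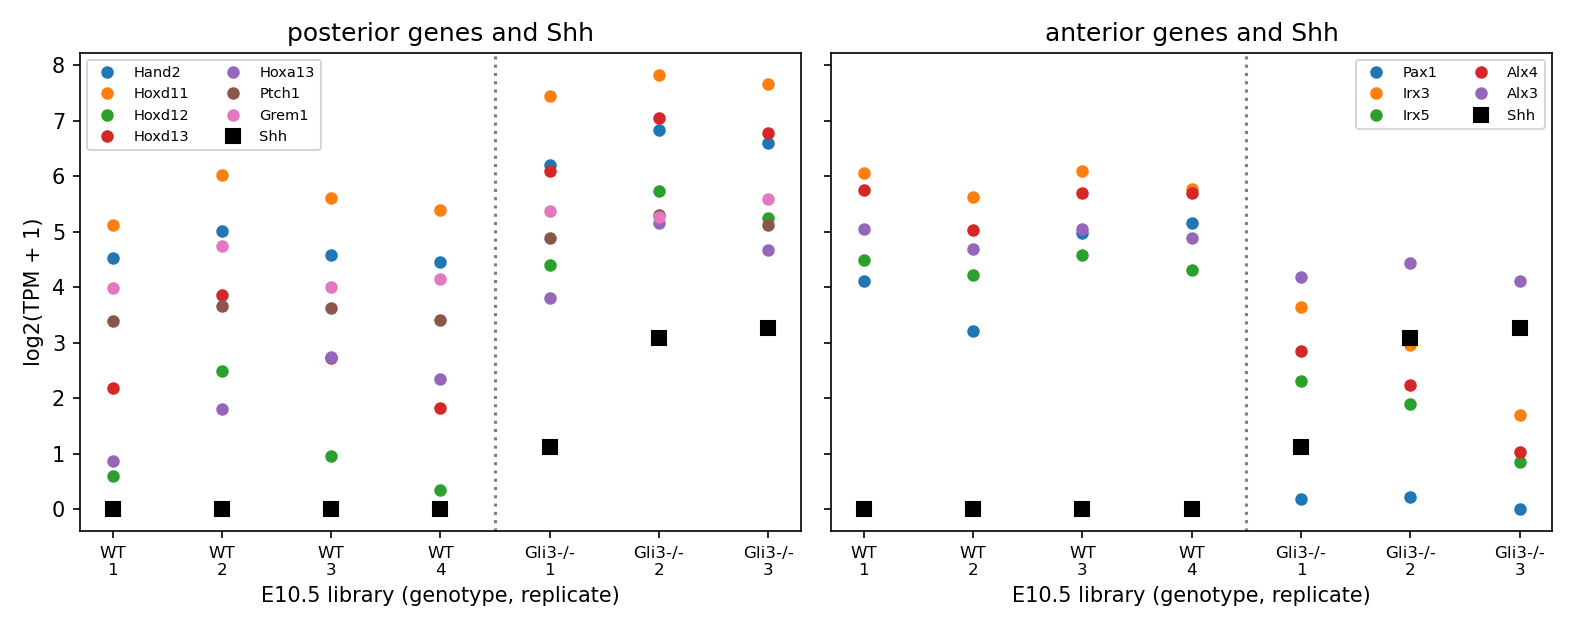
Log2(TPM + 1) of Shh (black squares) and of posterior (left) or anterior (right) genes in each E10.5 library, WT left and Gli3-/- right of the dotted line. Shh is at 0 in the 4 WT libraries and at 1.119 to 3.27 in the mutant libraries, where the posterior genes shown are higher than in WT and the anterior genes lower.

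Other tissues that make Shh were looked for by their markers. Of 7 notochord and floor plate markers, Noto, Foxa2 and Nkx2-9 were listed at 0 in every E10.5 library of both genotypes. The summed TPM of that list was 11.9 to 23.3 in Gli3-/- and 13.03 to 16.3 in WT libraries, and of the 3 markers tested 0 passed by limma (0 at an unadjusted p under 0.05). Of 6 gut endoderm markers, 1 was at a TPM of at least 1, and their sum was 2.92 to 4.13 TPM in Gli3-/- and 2.42 to 3.17 TPM in WT libraries. Neural tube markers summed to 9.49 to 15.5 TPM in Gli3-/- and 8.25 to 10.04 TPM in WT libraries, with the ventral markers Olig2 and Nkx2-2 at 0 in every E10.5 library.

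Among 20 genes listed as regulators of Shh in the limb, all tested at E10.5, 8 were higher and 3 lower in Gli3-/- buds. The list median was 0.27, and 4.77% of all genes passed. Hand2, Hoxd11, Hoxd12, Hoxd13 and Hoxa13 are among the genes that this list shares with the posterior list. The largest changes were those of Hoxd12 (log2 fold change 4.03, limma adjusted p = 0.00215), Hoxd13 (3.99, 0.00118), Alx4 (-3.51, 0.00103) and Hoxa13 (2.60, 0.0107). Hoxd12 and Fgf4, both among the 8, reached the filter only with the mutant libraries, where they were higher. Their passes are not read against the 4.77%. Alx4 encodes an anterior homeodomain protein known to restrict Shh, and 5' Hox proteins are known to bind the limb enhancer of Shh. In E9.25 buds 17 of the list were tested and 0 passed by limma (8 at an unadjusted p under 0.05), with a median of 0.09 against 0.23 for all genes. Of all 14760 genes tested there, 3247 were under that unadjusted p. The stage by genotype interaction passed for 10 of the 20, 7 positive and 3 negative, led by Hoxd13 (4.74, limma adjusted p = 0.000358). It passed for 2.13% of all genes. Hoxd12, Hoxa13 and Fgf4, all positive, were below the filter at E9.25 and entered the interaction only through E10.5 libraries. Their passes are not read against that share.

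Hhat (ENSMUSG00000037375.16, chromosome 1, 192496711 to 192771223, minus strand), the acyltransferase, was at 5.14, 4.19 and 5.03 TPM in the E9.25 WT libraries and at 9.46, 6.64, 8.79 and 9.76 TPM in the E10.5 WT libraries. In Gli3-/- buds it was at 3.55, 7.24, 5.14 and 4.46 TPM at E9.25 and at 8.29, 10.3 and 8.36 TPM at E10.5. Each genotype thus had more Hhat in every E10.5 than in every E9.25 library, and the genotypes overlapped at both stages. The stage difference was 0.73 log2 in WT (standard error 0.17, limma adjusted p = 0.00847) and 0.74 log2 in Gli3-/- buds (standard error 0.20, limma adjusted p = 0.0225). The genotype difference was 0.05 log2 at E9.25 (95% interval -0.46 to 0.55) and 0.05 log2 at E10.5 (95% interval -0.27 to 0.37), neither past the threshold (limma adjusted p = 0.906 and 0.883). The rise between stages did not hold on every scale. In WT the median gene was itself 0.34 log2 higher at E10.5, and the Hhat difference became 0.23 after quantile normalization (limma adjusted p = 0.233) and 0.097 with the trend over gene span removed (0.622). In Gli3-/- buds it lost its call without the filter on low TPM (limma adjusted p = 0.0665), without E9.25 replicate 4 (0.0571) or without any of the 3 E10.5 libraries (0.0525 to 0.103).

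The Hhat values also differ between columns of the deposited tables. Its mean read depth per base, turned into a level, was 26.9-fold below its TPM, where the median gene had a ratio of 1.13, and 0.666% of gene IDs had a ratio this large or larger. By that depth Hhat had only 2.98 to 9.69 reads per kilobase. On levels from coverage, an alternative added after the data were seen, the stage difference in Gli3-/- buds was 0.16 log2 (limma adjusted p = 0.118). The TPM of Hhat relative to other genes is therefore uncertain.

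Disp1 (ENSMUSG00000030768.12, chromosome 1, 183086266 to 183221522, minus strand), which releases the ligand from the cell membrane, was at 16.3, 8.54 and 11.7 TPM in E9.25 WT and 21.1, 17.3, 22.1 and 20.2 TPM in E10.5 WT libraries. In Gli3-/- libraries it was at 9.81, 18.3, 12.9 and 14.4 TPM at E9.25 and 15.3, 16.1 and 13.3 TPM at E10.5. The WT libraries of the 2 stages did not overlap, whereas those of the mutant did. At E10.5 every mutant library lay below every WT library, a separation whose share over all genes was not counted. In WT the stage difference was 0.72 log2 (standard error 0.20, limma adjusted p = 0.0176), and in Gli3-/- buds it was 0.12 log2 (95% interval -0.29 to 0.54, limma adjusted p = 0.673). The WT difference was not separable from that of all genes. It was 0.31 log2 after quantile normalization (limma adjusted p = 0.104), 0.38 with median-of-ratios scaling (0.0633) and 0.14 with the trend over gene span removed (0.394).

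Between genotypes, Disp1 differed by -0.41 log2 in E10.5 buds (standard error 0.11, limma adjusted p = 0.0635) and by 0.19 log2 in E9.25 buds (95% interval -0.37 to 0.74, limma adjusted p = 0.639). The E10.5 difference reached -0.48 log2 and passed once WT replicate 2 was left out (limma adjusted p = 0.0336). The interaction of stage and genotype was -0.60 (95% interval -1.21 to 0.02, limma adjusted p = 0.246), so the data do not show that the courses differ. Disp1 overlaps BC085271 on the same strand, a short gene listed at 24.0 to 35.5 TPM, and reads of the shared stretch could be assigned to either.

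Scube1 and Scube3 carried nearly all SCUBE transcript, with a summed SCUBE level of 26.7 to 65.7 TPM in E9.25 WT, 57.7 to 94.9 in E9.25 Gli3-/-, 87.5 to 110 in E10.5 WT and 92.9 to 115 in E10.5 Gli3-/- libraries. Scube2 (ENSMUSG00000007279.14, chromosome 7, 109798676 to 109865679, minus strand) was above 0 in 3 of 14 libraries, all WT, and at most 0.157 TPM. It was listed at 0 in all 7 Gli3-/- libraries. The differences between genotypes for Scube2 did not pass at either stage (exact permutation p = 0.429 at each).

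Scube1 (ENSMUSG00000016763.14, chromosome 15, 83602583 to 83725021, minus strand) was at 25.1, 14.0 and 17.2 TPM in E9.25 WT and 21.7, 38.8, 32.5 and 27.4 TPM in E9.25 Gli3-/- libraries. At E10.5 it was at 64.5, 49.5, 61.5 and 62.1 TPM in WT and 58.4, 76.2 and 70.8 TPM in Gli3-/- libraries. Every E10.5 library was above every E9.25 library, and the genotypes overlapped at each stage. Between stages Scube1 rose by 1.64 log2 in WT (standard error 0.19, limma adjusted p = 0.000415), a mean of 59.4 ± 6.71 (SD, n = 4) against 18.8 ± 5.71 TPM (SD, n = 3). In Gli3-/- buds it rose by 1.18 log2 (standard error 0.18, limma adjusted p = 0.00114), from 30.1 ± 7.29 (SD, n = 4) to 68.4 ± 9.12 TPM (SD, n = 3). Relative to the median gene the rises were 1.31 and 1.119 log2. The call held in both genotypes under every alternative tried, with 1.06 to 1.86 log2 in WT and 1.03 to 1.31 in Gli3-/- buds. The genotype difference was 0.66 log2 at E9.25 (95% interval 0.14 to 1.19, limma adjusted p = 0.217) and 0.20 at E10.5 (95% interval -0.06 to 0.46, limma adjusted p = 0.385).

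Scube3 (ENSMUSG00000038677.13, chromosome 17, 28142316 to 28174852, plus strand) was at 40.4, 12.7 and 30.3 TPM in E9.25 WT and 36.0, 56.0, 57.0 and 40.5 TPM in E9.25 Gli3-/- libraries. At E10.5 it was at 45.4, 38.0, 48.0 and 48.4 TPM in WT and 34.5, 39.0 and 31.4 TPM in Gli3-/- libraries. The values of the 4 groups overlapped, and the 2 lowest values of Scube3 at E9.25 were both in WT. The stage difference was 0.81 log2 in WT (95% interval 0.08 to 1.54, limma adjusted p = 0.0638) and -0.41 in Gli3-/- buds (95% interval -0.79 to -0.02, limma adjusted p = 0.114). The interaction was -1.22 (standard error 0.40, limma adjusted p = 0.128). Without E9.25 WT replicate 1, the WT stage difference was 1.14 (limma adjusted p = 0.0147) and the interaction -1.55 (0.0223). The stage difference in Gli3-/- buds passed without E9.25 replicate 1 (-0.53, limma adjusted p = 0.0272) and under 4 other alternatives, with -0.45 to -0.48 log2. Between genotypes, Scube3 differed by 0.86 log2 in E9.25 buds (limma adjusted p = 0.217) and by -0.35 log2 in E10.5 buds (limma adjusted p = 0.104). The latter passed without E10.5 WT replicate 2 (-0.43, limma adjusted p = 0.0402).

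Scube1 and Scube3 changed places between the stages, which their ratio within a library shows without regard to the scaling of that library. The ratio does not remove a trend over gene span, and Scube1 spans 122 kb against 32.5 kb for Scube3. The effect of that trend on the ratio was not tested. In E9.25 buds Scube1 was 0.764 ± 0.297 (SD, n = 3) times Scube3 for WT and 0.636 ± 0.0582 (SD, n = 4) times Scube3 for Gli3-/- libraries. At E10.5 it was 1.32 ± 0.0660 (SD, n = 4) times Scube3 in WT and 1.97 ± 0.281 (SD, n = 3) in Gli3-/- libraries. Scube3 was the more abundant of the pair in 6 of the 7 E9.25 libraries, the exception being WT replicate 2 with a ratio of 1.11, and Scube1 in all 7 E10.5 libraries. The ratio was chosen after the values were seen and tested in 4 comparisons. Exact two-sided permutation tests gave p = 0.0286, the smallest they can give, for stage in WT, stage in Gli3-/- buds and genotype at E10.5 (Benjamini-Hochberg adjusted p = 0.0381 over the 4). The log2 differences of the ratio were 0.86, 1.62 and 0.56. At E9.25 the genotypes overlapped (exact permutation p = 0.686). At E10.5 the ratio was 1.28 to 1.42 in WT and 1.69 to 2.25 in Gli3-/- libraries, although neither gene alone passed the test between genotypes. On levels from coverage the E10.5 ratio was 1.38 to 1.53 in WT and 1.87 to 2.49 in Gli3-/- libraries, again apart. At E9.25 it was 0.584 to 0.969 in WT and 0.616 to 0.742 in Gli3-/- libraries, so that on this scale WT replicate 2 was no exception.

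**Figure D3:**
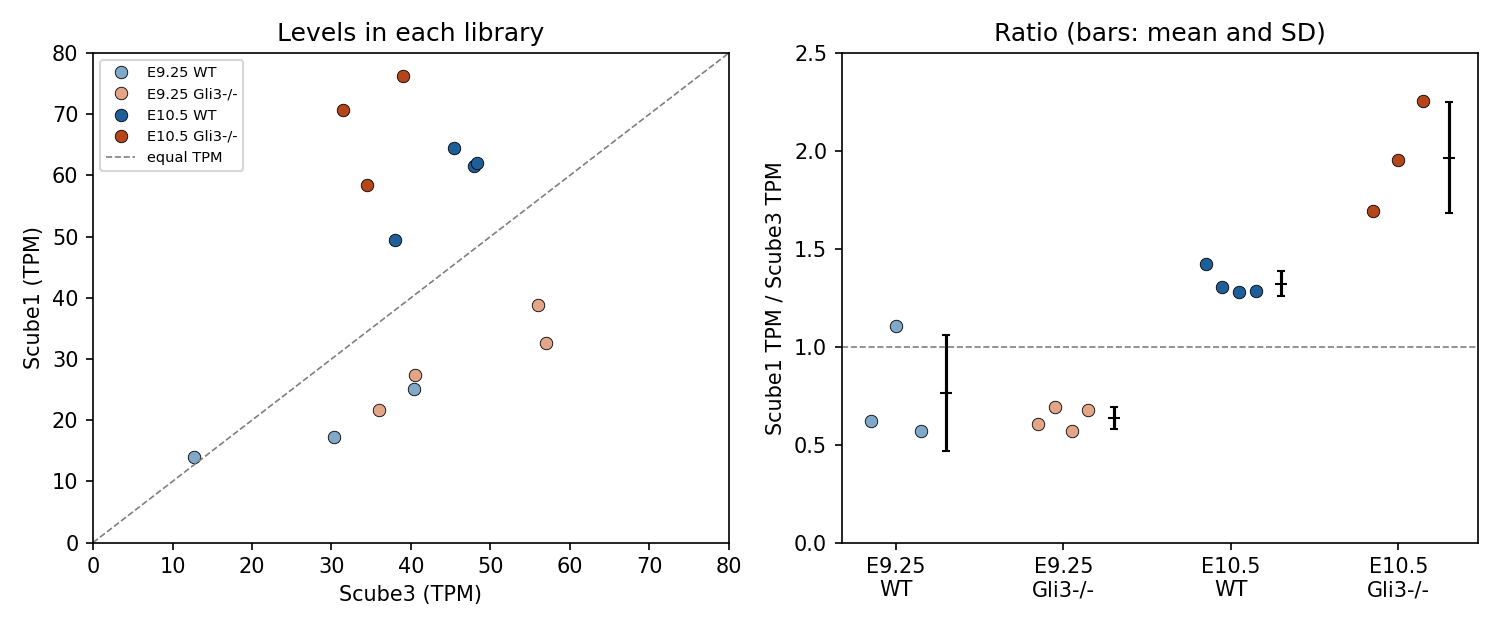
Left, Scube1 against Scube3 in TPM in each of the 14 libraries, with a dashed line of equal levels. Right, the ratio of the 2 by group, with the mean and SD; 6 of 7 E9.25 libraries lie below 1, all 7 E10.5 libraries above 1, and E10.5 Gli3-/- (1.69 to 2.25) above E10.5 WT (1.28 to 1.42).

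The promoters of this pair are shown because the 2 genes moved apart between the stages. RefSeq promoter windows on GRCm38.p6 matched 7 of the 8 genes by symbol (8 windows, 2 of them for Disp1). Shh had no window, so its promoter was not searched. The 250 bases before the start are printed from 5' to 3' on the strand of the gene, with CG dinucleotides in capitals. The Scube1 window is chr15:83725040-83725289 (minus strand) and the Scube3 window chr17:28142059-28142308 (plus strand).
Scube1: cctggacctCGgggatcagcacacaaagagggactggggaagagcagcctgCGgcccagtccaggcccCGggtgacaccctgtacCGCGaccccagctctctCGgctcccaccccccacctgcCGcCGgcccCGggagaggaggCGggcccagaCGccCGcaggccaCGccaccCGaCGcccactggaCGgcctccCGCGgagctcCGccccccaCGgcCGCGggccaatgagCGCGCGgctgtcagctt
Scube3: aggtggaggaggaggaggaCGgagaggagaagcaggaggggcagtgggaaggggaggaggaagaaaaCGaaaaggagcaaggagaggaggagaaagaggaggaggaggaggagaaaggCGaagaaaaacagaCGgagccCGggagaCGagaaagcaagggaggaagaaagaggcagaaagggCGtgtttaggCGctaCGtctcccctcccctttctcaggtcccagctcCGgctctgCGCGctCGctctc
Scube1 had 25 CG dinucleotides and 75.2% G and C, and Scube3 had 13 and 59.6% in a purine-rich stretch, against medians of 6 and 52.4% over 32851 windows. Over the 8 windows CG dinucleotides ran from 2 in the second Disp1 window to 27 in Scube2, the carrier that was barely detected. The GLI consensus GACCACCCA was searched on both strands and matched none of the 8 windows, and 0.225% of all windows hold it. Its last 6 letters, CACCCA, also matched none of them, while 19.3% of all windows hold these.

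The 5 comparisons of the tested genes are set side by side in the plot of log2 differences. At E9.25, 4 of the 8 genes were tested and 0 passed by limma (2 at an unadjusted p under 0.05, Scube1 and Scube3), where 0.136% of all genes passed. Of all 14760 genes tested there, 3247 were under that unadjusted p. Between stages in WT, 3 of 4 tested genes rose (Scube1, Disp1 and Hhat), where 48.7% of all genes passed. In Gli3-/- buds 3 of 5 rose (Shh, Scube1 and Hhat), where 25% of all genes passed. In the interaction 1 of 5 passed (Shh), where 2.13% of all genes passed. Shh was among the tested genes only through the group where it was high, so its passes are not read against these shares. Leaving it aside, 2 of 4 passed for stage in Gli3-/- buds and 0 of 4 in the interaction by limma (1 at an unadjusted p under 0.05, Scube3). In the interaction 3443 of all 16368 genes tested were under that unadjusted p. The medians over the 4 tested genes were 0.42 for genotype at E9.25 and 0.77 for stage in WT, against 0.23 and 0.34 for all genes.

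**Figure D4:**
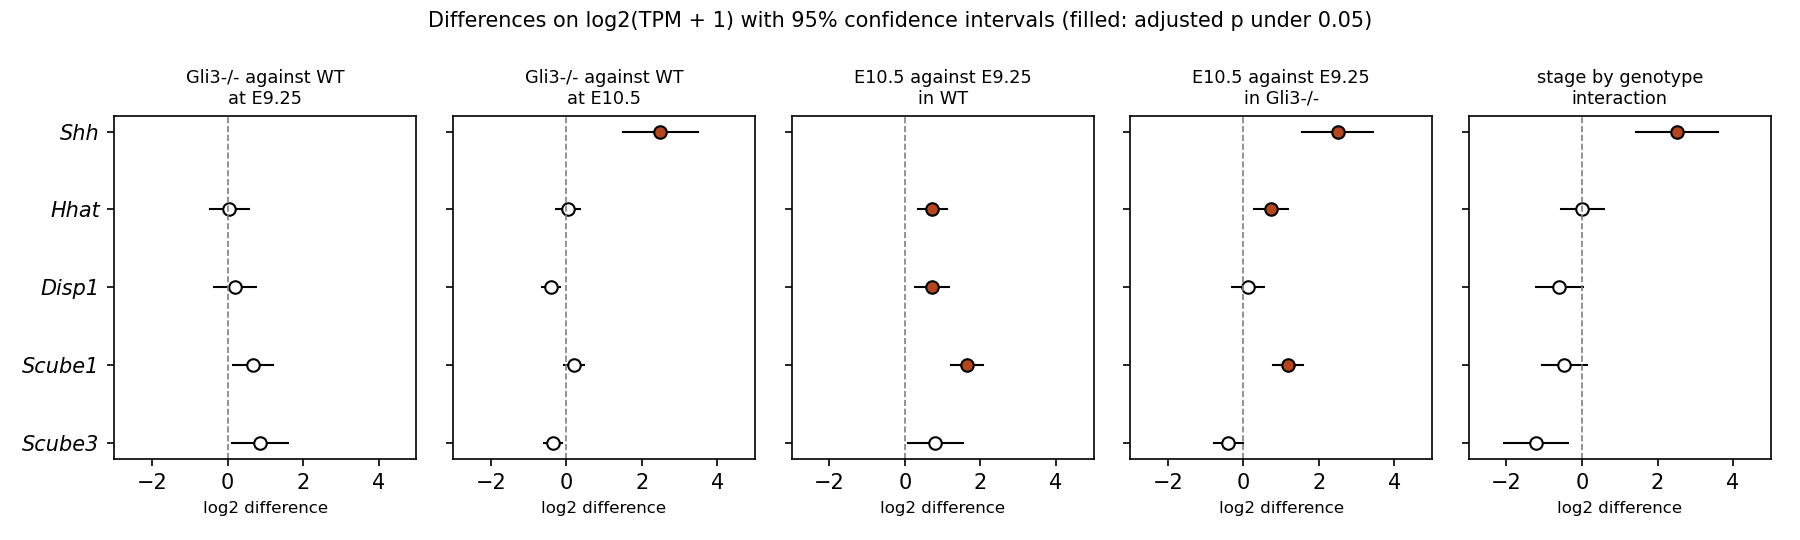
Log2 differences on log2(TPM + 1) for the genes tested in each of 5 comparisons; lines are 95% intervals and filled points have a limma adjusted p under 0.05. Scube1 (1.64 and 1.18) and Hhat (0.73 and 0.74) rise between stages in both genotypes, Shh appears only where the E10.5 Gli3-/- libraries enter (2.49, 2.49 and 2.52), and no point is filled at E9.25.

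Other genes of the pathway gave the setting. Of 17 relatives of these genes and extracellular carriers (glypicans, heparan sulfate enzymes, Disp2, Hhatl and others), 14 were tested for genotype and 0 passed by limma at E9.25 or E10.5 (5 at an unadjusted p under 0.05 at each stage). Under that unadjusted p were 3247 of all 14760 genes tested at E9.25 and 3061 of 15654 at E10.5. Between stages 9 of the 14 rose in WT, where 48.7% of all genes passed, with a list median of 0.62 log2 against 0.34 for all genes. The largest rise was that of Gpc2, a glypican (log2 fold change 1.20, limma adjusted p = 0.00513). In Gli3-/- buds 4 rose and 1, the sulfatase gene Sulf1, fell (-0.71, limma adjusted p = 0.00651), where 25% of all genes passed. Of 8 receptors and co-receptors, 7 were tested for genotype, and only Ptch1, the HH receptor and a target of the pathway, passed at E9.25, with a log2 fold change of 2.28 (limma adjusted p = 0.0309). The ligand Shh was then listed at 0 in all 4 Gli3-/- libraries and at 0 to 0.0603 TPM in the WT libraries, so it did not separate the genotypes. At E10.5 Ptch1 was higher (1.58), and the co-receptor genes Cdon (-1.42) and Gas1 (-0.63) were lower. Of 10 genes of signal transduction, 9 were tested at E9.25 and 0 passed by limma (7 at an unadjusted p under 0.05), and all 10 were tested at E10.5, where Gli3 itself was lower (-1.01). Markers of flank lateral plate summed to 53.4 to 132 TPM in E9.25 Gli3-/- against 15.0 to 35.6 TPM in E9.25 WT libraries. Of the 5 markers 2 were higher (Foxf1 and Gata4), where 0.136% of all genes passed. Foxf1 reached the filter only with the mutant libraries, where it was higher, so its pass is not read against that share. The part of flank tissue in the E9.25 levels of Ptch1, Scube1 and Scube3 was not tested.

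Genes whose levels followed those of the ligand and release genes were described by Pearson's r of log2(TPM + 1) over the 14 libraries, which share stage, dissection and genotype. Shh was most like Hottip (r = 0.971), a noncoding RNA at the 5' end of the HoxA cluster, and Gp9 (0.943), a platelet glycoprotein gene. Shh reached a TPM of 1 only in the 3 E10.5 Gli3-/- libraries, so every r of Shh rests mainly on that group. Scube1 was most like Tcf7l1 (0.992), a transcription factor of the Wnt pathway, and Specc1 (0.991). Scube3 was most like Fn1 (0.976), which encodes fibronectin, and Agrn (0.972), which encodes the proteoglycan agrin. Disp1 was most like Pomt1 (0.941), a protein mannosyltransferase gene, and Gm13563 (0.938). Hhat was most like Src (0.974), the tyrosine kinase gene, and Ssbp3 (0.969). Among the 5 genes themselves r was highest between Hhat and Scube1 (0.920) and lowest between Shh and Scube3 (-0.114).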

How the data were processed

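RNA-seq of 14 pools of forelimb buds was used. TRIzol RNA was sequenced by the authors as single reads of 100 bases, and HISAT2 was the aligner and DESeq2 the test they used. The submitters' processing notes name the mm10 build, and the tool that made the gene tables is not given in the sources used here. All comparisons rest on TPM as deposited, scaled by the authors to a fixed total per library. The authors also deposited FPKM values, scaled by the reads of each library, and a coverage value, the mean number of reads over each base of a gene. Both served to estimate reads per library (38.1 to 56.8 M, median 47.1 M) and levels from coverage. The tables hold no read counts, so that the depth of a value near 0 is known only through these estimates, and DESeq2 was not run. Of 9796 gene IDs at 5 TPM or more in 13 libraries, 2 were listed at 0 in the other, so a listed 0 is not taken as absence.

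TPM was summed per gene ID. Log2(TPM + 1), which understates changes of low genes, was compared with limma 3.58.1 in R 4.3.3 (lmFit, eBayes with a trend) over gene IDs that reached a TPM of 1 in 3 or more libraries of the comparison. Two-sided p-values were adjusted by the Benjamini-Hochberg method over all genes tested, with a threshold of 0.05. Genotype was compared at each stage, stage in each genotype, and their interaction in all 14 libraries. Genes below the filter were compared by exact permutation over the 35 ways to divide 7 libraries, which cannot give a p below 0.0286. Python 3.11.15, pandas 2.3.3, NumPy 2.4.6 and SciPy 1.17.1 served other steps.

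Each library is 1 replicate, and nothing says that pools shared no litter, so p-values measure the spread between these pools. For how many of all genes the libraries of 2 groups did not overlap was not counted. The 8 genes, the gene lists and the tests were chosen with earlier results of these data known. All 8 genes are named in every comparison. Of each list, at most 4 genes that passed are named for having the largest changes. The values of Hoxd12, Hoxd13, Hoxa13, Pax1 and Irx3 by library were chosen after the values were seen. So were the ratio of Scube1 to Scube3 and the permutation test of Shh. The fit was tested on simulated data for the genotype comparisons. Of 100 genes set to differ by 1 log2 it called 54 (E9.25) and 84 (E10.5), of 100 set to differ by 2 log2 it called 91 and 95, and of the unchanged genes 7 and 8. The simulated noise was drawn independently for each gene and library, so shifts shared by many genes of a library were not covered. Replicate numbers were checked for pairing: the deviations of same-numbered WT and Gli3-/- libraries from group means correlated with an average r of -0.18 at E9.25 and -0.05 at E10.5. The E10.5 Gli3-/- titles number the libraries 1 to 3, whereas the deposited tables carry other numbers (2 to 4), and by these the average r was 0.19 (0.052 to 0.32), against -0.06 for other pairs. The right numbering is unknown, not every pair reached 0.1, and the libraries were not taken as pairs. A result of the receptor list is not reported here. Whether reads were assigned by strand is not given in the sources used here.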

Additional observations from a re-analysis of the deposited data

Results flagged for a closer look

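Shh had a stage by genotype interaction of 2.52 log2 (limma adjusted p = 0.0179), because the 3 E10.5 Gli3-/- libraries were at 1.17 to 8.67 TPM and the other 11 at 0 to 0.0603 TPM. The size of this number depends on the pseudocount.

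Ihh in the E9.25 Gli3-/- group had 1 library far from the others. Replicate 1 was at 0.805 TPM and replicates 2 to 4 at 0 to 0.0684 TPM, so that the gap to the nearest library was 0.915 of the range of the group. It was the only such case among 13 groups of 4 libraries examined, where chance gives about 1 in 20.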

How the results depend on the processing

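Fits were repeated without a filter, with a stricter filter (TPM of 5), with a pseudocount of 0.1, without a trend in the variance, after quantile normalization, median-of-ratios scaling or removal of the trend over gene span, with replicate numbers as a block, with a spread shared by all 14 libraries, and without each library. Chosen after the data were seen were levels from coverage and, at E10.5, a block by the numbers of the deposited tables. Of 423 values of 23 fold changes, 374 kept their direction and their side of the threshold, 19 lost and 10 gained the call, and 20 changed sign.

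The number of the 8 genes called between genotypes at E10.5 fell from 1 to 0 without a filter, with a filter at 5, where Shh was not tested, and with the replicate block by titles (Shh adjusted p = 0.0853), and was 0 to 3 with each library left out. The replicate block by table numbers kept 1. In the interaction it fell from 1 to 0 without a filter, with a filter at 5 and with the replicate block (Shh adjusted p = 0.137), and was 0 to 2 with each library left out. For stage in WT it fell from 3 to 1 with quantile normalization and with the span trend removed, leaving Scube1.

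Signs changed only for Disp1 and Hhat, in values that did not pass. For E9.25 genotype, Disp1 was -0.11, -0.045 and -0.21 and Hhat -0.23, -0.16 and -0.35 under quantile normalization, median-of-ratios scaling and span trend removal. With each library left out, Disp1 was -0.026 to 0.40 and Hhat -0.11 to 0.17. For E10.5 genotype, Hhat was -0.056 to 0.11 with each library left out. For stage in Gli3-/- buds, Disp1 was -0.027 with the span trend removed and -0.018 to 0.26 with each library left out. In the interaction, Hhat was -0.012 on levels from coverage and -0.12 to 0.16 with each library left out. The cause was not tested. The log2 differences of the Scube1 to Scube3 ratio were 0.46 to 0.67 for E10.5 genotype, 0.67 to 1.16 for stage in WT and 1.52 to 1.73 for stage in Gli3-/- buds with each library left out or on levels from coverage.

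The replicate block by titles moved the genes called at E10.5 from 747 to 164 and that by table numbers to 498 (237 higher and 261 lower). The block by titles moved them in the interaction from 348 to 42, in WT between stages from 7520 to 4699 and at E9.25 from 20 to 66. Same-numbered libraries were not shown to be pairs. Without a filter 391 genes were called at E10.5 and 0 at E9.25 (3542 at an unadjusted p under 0.05), and with a shared spread 406 and 1185. Levels from coverage called 9 at E9.25. Of genes called between stages in WT, 5885 were higher and 1635 lower, but 2846 and 2967 with quantile normalization, 3073 and 3334 with median-of-ratios scaling and 2884 and 3071 with the span trend removed. At E9.25 leaving out 1 library gave 2 to 165 genes, and in the interaction 156 to 1430. A TPM under about 0.1 stands for few reads, so differences in Ihh, Dhh and Scube2 of that size were not detectable at this depth.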
